A study of Mus musculus with 20 samples.

Results

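The acetylation landscape of Comma-Dβ cells was read from the H3K27ac peak list, in which chromatin pulled down with an antibody to histone H3 acetylated at lysine 27 is set against input chromatin. All peaks on the 19 autosomes were taken, 60205 of the 61496 peaks in the list and of 194274 regions in the 4 deposited lists of the study. Comma-Dβ is a mouse mammary epithelial cell line. The H3K27ac group and the input group held 4 libraries each, among 20 libraries in 5 groups of 4. The other groups were chromatin pulled down for H3K4me3, for H3K27me3 and for HEB, the E protein transcription factor encoded by Tcf12. All groups shared 1 cell line at passage 28 and 1 medium, with serum at 2%, HEPES at 10 mM, insulin at 0.125 IU/mL and epidermal growth factor at 5 ng/mL. The labels give no genotype change and no treatment for any group, and the inputs differ from the H3K27ac libraries only in having no antibody. As a model it is limited to a single cell line in culture.

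H3K27ac is put on nucleosomes by the acetyltransferases Ep300 and Crebbp, removed by histone deacetylases and read by bromodomain proteins. It lies at promoters and enhancers in use, whereas H3K4me3 lies mainly at promoters. H3K27me3, written by Polycomb repressive complex enzymes, sits on the same lysine, so a single histone tail cannot carry both. Long stretches of H3K27ac are known from genes that define a cell type, many of which encode transcription factors.

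The promoters below belong to the 6 transcription factor genes with the most acetylated sequence that have a promoter entry in RefSeq (build GRCm38.p6). Of the 628 transcription factor genes described below, 447 have such an entry. The 6 sequences show the first listed starts of these loci, which need not lie in the widest peak of the locus. Each is the 250 bases before the first listed start, 5′ to 3′ on the strand of the gene. Capitals mark the GC box GGGCGG, the CCAAT box CCAAT and the AP-1 motif TGANTCA, each searched on both strands, and no match overlapped another. The positions are chr6:99520994-99521243 (minus strand) for Foxp1, chr16:92826075-92826324 (minus) for Runx1, chr17:44814628-44814877 (minus) for Runx2, chr6:134035450-134035699 (plus) for Etv6, chr8:84780083-84780332 (minus) for Nfix and chr19:28680078-28680327 (minus) for Glis3.
Foxp1: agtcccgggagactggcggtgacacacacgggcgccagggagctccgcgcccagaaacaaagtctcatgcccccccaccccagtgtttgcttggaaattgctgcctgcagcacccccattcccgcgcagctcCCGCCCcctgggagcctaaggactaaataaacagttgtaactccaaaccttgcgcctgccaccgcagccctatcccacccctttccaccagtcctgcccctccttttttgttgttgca
Runx1: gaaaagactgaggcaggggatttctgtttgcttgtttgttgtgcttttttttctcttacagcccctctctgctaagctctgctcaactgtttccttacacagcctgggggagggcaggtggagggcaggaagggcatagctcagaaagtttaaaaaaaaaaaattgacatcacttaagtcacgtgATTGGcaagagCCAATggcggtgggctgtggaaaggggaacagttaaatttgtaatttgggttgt
Runx2: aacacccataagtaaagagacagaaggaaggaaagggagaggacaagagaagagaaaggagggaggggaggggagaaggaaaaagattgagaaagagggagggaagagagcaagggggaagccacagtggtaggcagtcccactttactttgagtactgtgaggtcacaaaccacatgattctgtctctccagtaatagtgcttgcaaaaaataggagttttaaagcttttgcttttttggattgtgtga
Etv6: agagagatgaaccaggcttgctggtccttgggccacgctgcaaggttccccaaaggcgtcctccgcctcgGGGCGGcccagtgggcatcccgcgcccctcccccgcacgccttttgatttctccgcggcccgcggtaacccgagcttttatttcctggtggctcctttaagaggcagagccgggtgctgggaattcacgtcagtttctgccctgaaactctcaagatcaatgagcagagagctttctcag
Nfix: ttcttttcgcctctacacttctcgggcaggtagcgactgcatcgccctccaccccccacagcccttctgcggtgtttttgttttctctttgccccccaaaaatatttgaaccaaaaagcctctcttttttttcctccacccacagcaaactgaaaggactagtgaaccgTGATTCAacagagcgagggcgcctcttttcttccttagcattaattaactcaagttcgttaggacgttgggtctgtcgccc
Glis3: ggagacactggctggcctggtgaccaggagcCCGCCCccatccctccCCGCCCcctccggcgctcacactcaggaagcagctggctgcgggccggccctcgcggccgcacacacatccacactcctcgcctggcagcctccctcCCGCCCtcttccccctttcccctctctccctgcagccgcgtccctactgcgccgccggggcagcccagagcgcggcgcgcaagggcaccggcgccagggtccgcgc
H3K27ac covered all 2001 bp around each of these 6 starts, and H3K4me3 covered between 706 bp at Runx2 and 2001 bp at Foxp1, Etv6 and Nfix. The sequences themselves were unlike each other. Glis3 held 24 CpG dinucleotides and 3 GC boxes, Etv6 held 16 CpG and 1 GC box, and Foxp1 held 11 CpG and 1 GC box. Runx1 held 2 CpG and 2 CCAAT boxes, Nfix held 11 CpG and 1 AP-1 motif, and Runx2 held 0 CpG and none of the 3 motifs. A match is a description of these letters only.

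No value below has a replicate error, because the list gives 1 value per peak and no column per library, and read depth per library is unknown. No test was therefore made, and values are counts, shares and medians over peaks or genes. The fold of a peak is the authors' own enrichment of ChIP over control, and q is their adjusted p-value per peak. In bulk chromatin a mark on few cells and a weak mark on many cells cannot be told apart.

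Promoter peaks were compared with distal peaks first. Peaks at promoters were wider, stronger and nearly always shared with H3K4me3, whereas most of the acetylated sequence lay elsewhere. A promoter peak here reaches within 1 kb of a RefSeq start of a protein-coding gene, or of either gene end where no start is listed. A wide peak meets this more easily than a narrow one, and its whole width then counts as promoter, so the difference in width is partly set by the rule. By this rule 10645 peaks (17.7%) lay at promoters, 28118 (46.7%) inside genes away from promoters and 21442 (35.6%) between genes. Promoter peaks held 31.8 Mb (26.9%) and the 49560 distal peaks, inside and between genes, held 86.3 Mb, of 118 Mb acetylated in all (4.92% of the autosomes, each measured from the first to the last peak over the 4 lists).

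The median promoter peak was 2065 bp wide with a fold of 4.06 (interquartile range 2.96 to 5.59). The median distal peak was 1180 bp wide with a fold of 2.24 (1.96 to 2.97). Peaks between genes stood slightly above those inside genes, with median folds of 2.37 and 2.15. A −log10 q of 5 or more was reached by 84.3% of promoter peaks and by 36.6% of distal peaks.

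The other marks divided in the same way. H3K4me3 touched 21.8% of all H3K27ac peaks, which was 9490 promoter peaks (89.1%) and 3638 distal peaks (7.34%). H3K27me3 touched 3.45% of all peaks, 5.06% at promoters and 3.11% of distal peaks. Read from the other lists, H3K27ac touched 9561 of 11185 promoter H3K4me3 peaks (85.5%) and 3862 of 5377 distal ones (71.8%). It touched 627 of 6208 promoter H3K27me3 peaks (10.1%) and 1426 of 91757 distal ones (1.55%). H3K4me3 away from coding promoters was thus mostly acetylated too, while H3K27me3 seldom was in either place.

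Width moved with these differences, so promoter and distal peaks were set side by side within classes of width. The promoter peaks had the higher median fold in each of the 6 classes. At 500 bp or less the medians were 2.26 for 517 promoter peaks and 1.97 for 9434 distal peaks. At 1 to 2 kb they were 3.74 and 2.32, and over 10 kb they were 5.77 for 375 promoter peaks and 5.20 for 334 distal peaks. The share with H3K4me3 rose with width in distal peaks, from 2.80% at 500 bp or less to 39.2% over 10 kb. In promoter peaks it ran from 72.9% to 97.1%.

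HEB touched 1.23% of all H3K27ac peaks, with 130 promoter peaks (1.22%) and 608 distal peaks (1.23%). Within classes of width the shares were not alike. HEB lay in 0.231% of promoter and 0.819% of distal peaks of 1 to 2 kb. At 2 to 5 kb it lay in 0.714% and 2.25%, and at 5 to 10 kb in 3.55% and 6.23%. Distal peaks thus held HEB more often at these widths. The order was the other way at 500 to 1000 bp, with 8 of 1159 promoter and 42 of 11613 distal peaks, and the shares over 10 kb were 12.5% and 13.2%.

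**Figure D1:**
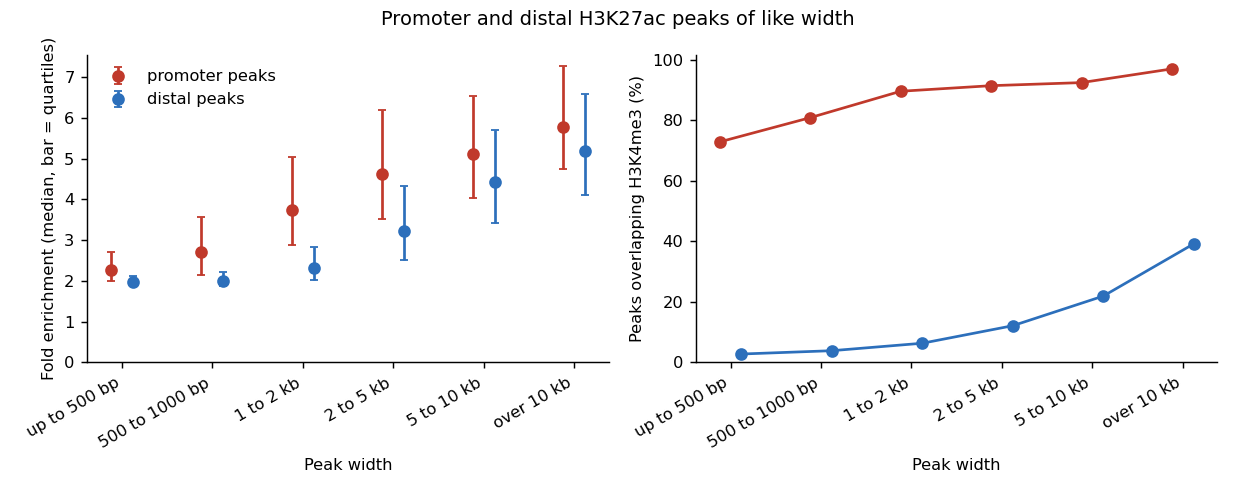
H3K27ac peaks by width, with promoter and distal peaks side by side. The left panel gives the median fold (the authors' enrichment over control) with bars for the quartiles over peaks, and the right panel the percent of peaks that touch H3K4me3. Promoter peaks had the higher median fold and the higher H3K4me3 share in each of the 6 width classes.

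Wide peaks meet a rule of 1 bp of overlap more easily than narrow ones. The 3638 distal peaks with H3K4me3 were stronger and wider than the other distal peaks. Their median fold was 3.94 against 2.19, and their median width 2222 bp against 1128 bp. HEB lay in 119 of them (3.27%) and in 489 of the other 45922 (1.06%). The HEB share also rose with width in distal peaks, and the part of width in this difference was not tested. An end of a protein-coding gene lay within 1 kb of 249 (6.84%), and an end of another RefSeq gene, such as a long noncoding RNA, of 784 (21.6%). The remaining 2605 (71.6%) lay at no RefSeq gene end. Of the distal peaks without H3K4me3, 3.48% lay at a protein-coding gene end, 6.38% at another gene end and 90.1% at no gene end.

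Peak density was highest within 1 kb of gene starts and, lower, changed little from 1 to 50 kb. Within 1 kb of a start there were 167.8 peak midpoints per Mb, against 25.1 over the autosomes. The density was 33.5 per Mb at 1 to 5 kb, 32.2 at 5 to 10 kb, 29.8 at 10 to 50 kb, 23.9 at 50 to 100 kb and 11.6 beyond 100 kb. The median midpoint lay 23.2 kb from a start. The zone of 10 to 50 kb held 20905 peaks (34.7%) on 29.2% of the area, and the zone within 1 kb held 14.0% on 2.09%. Median fold was 3.99 within 1 kb and between 2.20 and 2.43 in every farther zone. The share with H3K4me3 fell with distance, from 91.8% within 1 kb to 35.4% at 1 to 5 kb and 4.98% beyond 100 kb.

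Around the start the acetylated zone leaned into the gene. Of 16457 genes with a listed start, 49.2% were acetylated 200 bp downstream of it, the highest point of the profile, and 47.3% at the start. At 1 kb the shares were 22.3% upstream and 30.9% downstream, and at 10 kb they were 7.63% and 8.63%. Where the start lay inside a peak (7787 genes), the peak reached a median of 0.904 kb upstream and 1.20 kb downstream, and further downstream in 63.8% of genes.

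Neighbouring starts went with the lean. With no other start within 5 kb (5799 genes) the reach was 0.813 kb upstream and 1.24 kb downstream, and 69.5% leaned downstream. With a divergent start within 1 kb (1245 genes) the peak reached 1.19 kb upstream and 1.02 kb downstream, and 40.2% leaned downstream. Transcription factor genes had wider zones, with medians of 1.33 kb upstream and 2.32 kb downstream over 193 genes. At 5 kb downstream 18.6% of 447 transcription factor genes were acetylated, against 9.36% of all genes, and at 5 kb upstream 8.28% against 7.21%.

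**Figure D2:**
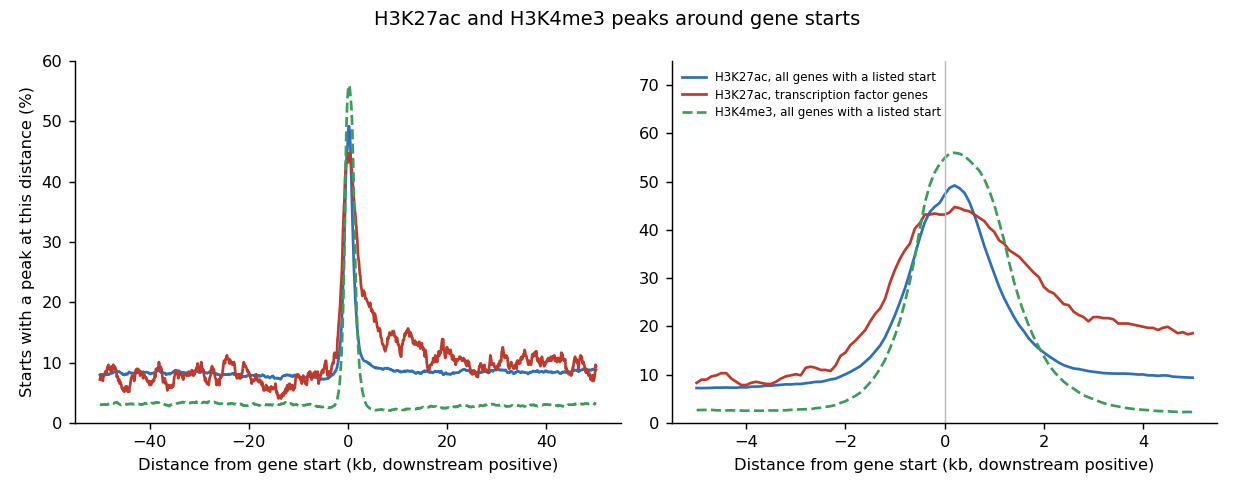
Share of listed gene starts that lie in a peak, in percent, against the distance from the start in kb (negative values upstream), within 50 kb (left) and 5 kb (right). Lines are H3K27ac at all genes, H3K27ac at transcription factor genes and, dashed, H3K4me3 at all genes. H3K27ac at all genes is highest 200 bp downstream, at 49.2% (44.7% at transcription factor genes), and at 5 kb downstream transcription factor genes stand higher, with 18.6% against 9.36%.

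Per gene, 11211 of 20665 protein-coding genes (54.3%) had H3K27ac within 1 kb of a start. Among the 16457 genes with a listed start the share was 54.4%. Within the same windows H3K4me3 lay at 58.6% of genes and H3K27me3 at 28.4%. H3K27ac stood at the start without H3K27me3 in 49.8% of genes and with it in 4.44%, H3K27me3 stood alone in 24.0%, and neither stood there in 21.7%. Genes with several listed starts were mostly uniform. Of 2660 such genes, all starts were acetylated in 1352, none in 802 and some in 506 (19%). Starts that lie close together share most of the 1 kb window, as at Rara, whose second start is 0.022 kb from the first. Such starts can hardly differ, and genes were not split by the spacing of their starts. Rreb1, which encodes a zinc finger protein named for Ras response, had 2 of 4 starts acetylated and is named here after its values were seen.

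Acetylated starts were richer in CpG than the others. Over 20085 listed starts, the median ratio of observed to expected CpG in the 250 bases upstream was 0.746 at the 10846 acetylated starts and 0.249 at the 9239 others. The GC box GGGCGG was found in 59.7% of acetylated and 24.2% of other starts, against 43.4% of all. The TATA box TATAAA was found in 6.06% and 18.3%, and the CCAAT box in 36.1% and 34.3%. Starts with H3K4me3 and no H3K27ac (1481) resembled the acetylated ones, with a CpG ratio of 0.654 and a GC box in 64.0%.

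The 640 starts with H3K27ac and no H3K4me3 were CpG poor, with a ratio of 0.194 and a GC box in 15.6%. They held the AP-1 motif TGANTCA in 16.1%, against 4.76% of all acetylated starts and 6.18% of all starts. They also held the E-box CANNTG in 74.7%, against 62.6% of all starts and 55.9% of all acetylated starts. The starts without H3K27ac, also CpG poor with a ratio of 0.249, held the E-box in 70.4% and the AP-1 motif in 7.86%. The E-box share was thus near that of starts without H3K27ac. Base composition differs between these sets, and its part in the motif shares was not tested.

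Acetylated sequence per gene locus, the gene and 10 kb on each side, had a median of 2.82 kb and an interquartile range of 0 to 7.29 kb. No H3K27ac at all was found in 5554 loci (26.9%), and 20 kb or more in 1044 (5.05%). The 10 genes with the most were Rad51b (187.7 kb), a DNA repair gene, Foxp1 (134.0 kb), the focal adhesion gene Tns3 (128.5 kb), Runx1 (123.4 kb), Asap1 (120.5 kb), Zmiz1 (120.0 kb), Aopep (117.3 kb), the cytoskeletal gene Septin9 (116.3 kb), Nfib (114.6 kb) and Stard13 (114.5 kb). Gene length entered this measure, with a Spearman correlation across genes of 0.385 between length and acetylated kb, and genes are not independent replicates.

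As a share of the gene itself, among genes of 20 kb or more, the order was different. Gnai2, Niban2 and Shf were acetylated over 100% of their length, Angptl2 over 96.5%, the tropomyosin gene Tpm1 over 96.2%, Nfix over 96.1% and the nonmuscle myosin gene Myh9 over 95.9%. Cd9 followed with 95.8%, the matrix protein gene Sparc with 95.4% and Baiap2 with 94.8%. Nfix was the single transcription factor gene of the list among these 10.

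The strongest peaks were narrower than the widest ones and were other loci. Among the 10 of highest fold, the peak at Efcab2 had 20.3 and the one at Setd1b, an H3K4 methyltransferase gene, had 19.7. A peak with a fold of 18.8 was 511 bp wide, lay 33.2 kb from the nearest start, of Pum2, and overlapped H3K4me3 over its whole width. Others had Dap (18.2), Flacc1 (17.9), Ezr (17.7, at 45.2 kb), Snrnp35 (17.5) and Chmp3 (17.4) as the nearest gene.

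Several of the 10 widest peaks covered noncoding RNA genes. A peak of 61.8 kb (chr19:5792240-5854018) covered Malat1 and Neat1, long noncoding RNAs of nuclear speckles and paraspeckles, beside Frmd8. One of 58.3 kb (chr15:85651808-85710143) covered Mirlet7c-2 and Mirlet7b, genes of let-7 microRNAs, and the long noncoding RNA gene Lncppara. One of 49.4 kb (chr11:86567034-86616383) covered Mir21a and lay over Vmp1 and Tubd1. The others were at Nfix (91.9 kb), Myh9 (69.4 kb), Niban2 (56.4 kb), the actin binding caldesmon gene Cald1 (51.5 kb), the actinin gene Actn4 (46.9 kb), Baiap2 (44.9 kb) and Mrpl33 (44.2 kb).

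Transcription factor genes were then described, from a list of 630 symbols in 35 families, of which 628 matched an autosomal gene. Over all gene lengths they were acetylated at the start about as often as other genes. They had a longer upper tail of acetylated sequence and far more H3K27me3. H3K27ac was at the start of 329 (52.4%, against 54.3% of all genes). It stood there with H3K27me3 in 78 (12.4% against 4.44%), H3K27me3 stood alone in 268 (42.7% against 24.0%) and neither stood there in 31 (4.94% against 21.7%). H3K4me3 was at the start of 421 (67.0% against 58.6%). The median locus held 3.79 kb of H3K27ac, 176 loci (28%, against 26.9%) held none and 74 (11.8%, against 5.05%) held 20 kb or more.

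The upper tail was present at like gene length. Among genes of 20 to 50 kb, 13.7% of transcription factor genes and 3.57% of other genes had 20 kb or more. Among genes of 200 kb or more the shares were 25 of 46 (54.3%) and 258 of 899 (28.7%). Below 5 kb no transcription factor gene reached 20 kb, and 0.113% of the others did. H3K27ac at the start was less frequent in transcription factor genes than in others in each length class from 5 to 200 kb. At 50 to 100 kb the shares were 57.0% and 65.7%. It was more frequent below 5 kb (42.5% against 30.8%) and at 200 kb or more (56.5% against 45.1%).

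The 25 transcription factor genes with the most H3K27ac ranged from 39.4 to 134.0 kb, with 38.8 kb at the next gene, Ppard. Together they held 1749 kb, 30.6% of the acetylated sequence of all 628 loci, and 94.2% of it lay inside the genes rather than in the flanks. They were long genes, with a median of 225 kb against 16.5 kb for the whole list, and 18 had no other protein-coding gene in the locus. In 22 of the 25 H3K27ac was at the start (52.4% of the whole list) and in 21 H3K4me3 was (67.0%). Acetylated sequence at the start counts in the ranking, and most acetylated starts also carry H3K4me3. Both counts thus partly follow from the ranking. HEB was at the start of 0 of the 25. Over all genes only 71 of the 874 autosomal HEB sites lay at promoters, so a count of 0 among 25 says little. Away from the starts HEB was not absent, with 1147 bp in the widest peak of Nfix.

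Of the genes described here, the order began with Foxp1, a forkhead repressor gene (chr6:98925342-99522746), with 134.0 kb in 50 peaks. Runx1 (chr16:92601466-92826074), a core binding factor gene active in mammary epithelium, had 123.4 kb in 25 peaks, and Nfib (chr4:82290173-82506751), a nuclear factor I gene, had 114.6 kb in 36 peaks. Runx2 (chr17:44495987-44814797), known from bone and also expressed in mammary epithelium, had 101.0 kb in 35 peaks, and the ETS repressor gene Etv6 (chr6:134035700-134270158) had 98.7 kb in 39. These loci carried many separate peaks, with the highest fold between 7.11 at Runx1 and 14.8 at Etv6.

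Nfix (chr8:84704712-84801238) differed from them in shape. Its 98.1 kb lay in 4 peaks, and a single peak of 91.9 kb (chr8:84709019-84800913) covered all 4 of its listed starts. Next were Tead1 (72.9 kb), a DNA partner of the Hippo pathway coactivators, Glis3 (70.8 kb), Zbtb20 (70.4 kb) and Trp63 (68.9 kb), which encodes the p63 protein of basal epithelium. Trps1 (68.6 kb), a GATA type repressor gene, Arid5b (64.6 kb), Mecom (56.1 kb), Smad3 (55.0 kb), a mediator of TGF-beta signals, and Zfhx3 (52.3 kb) followed.

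The remaining 9 were Ets1 (50.8 kb), Elk3 (49.0 kb), Sox5 (48.3 kb), Hmga2 (44.0 kb), the retinoic acid receptor gene Rara (41.9 kb), the E protein gene Tcf4 (40.3 kb), the retinoid X receptor gene Rxra (40.2 kb), Nfkb1 (39.8 kb) and the Notch effector gene Rbpj (39.4 kb). H3K27me3 at the start was found at Mecom and Hmga2 of the 25. Zfhx3 carried 208.8 kb of H3K27me3 in its locus beside its 52.3 kb of H3K27ac, and Mecom 24.4 kb beside 56.1 kb.

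**Figure D3:**
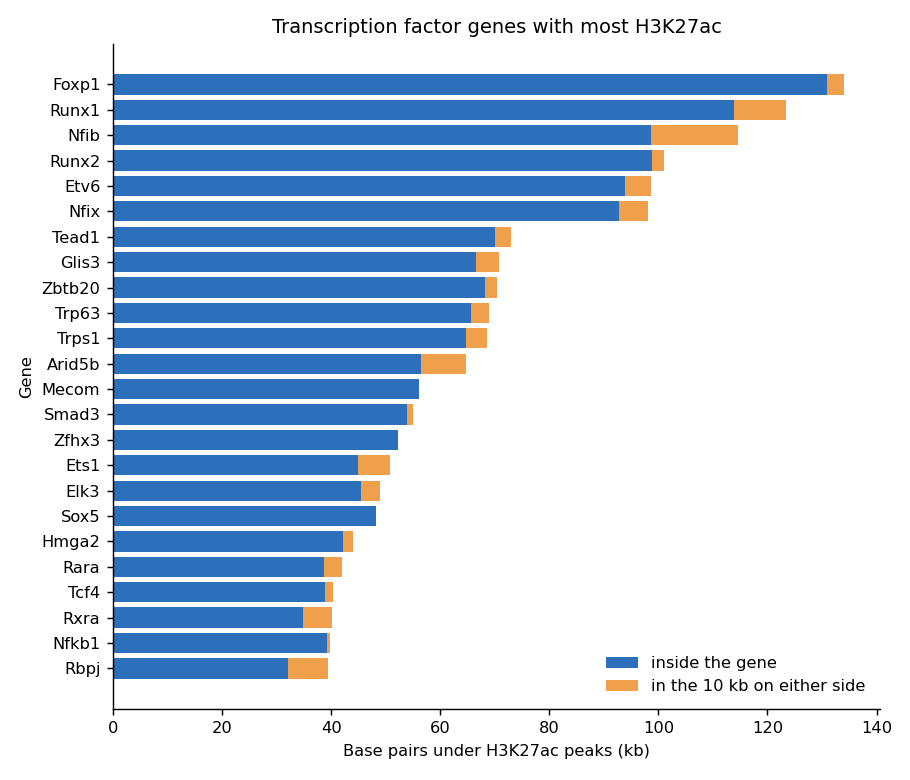
Acetylated kb in the gene and 10 kb on each side for all but 1 of the 25 transcription factor genes with the most, each bar split into the part inside the gene and the part in the flanks. Bars run from 134.0 kb at Foxp1 to 39.4 kb at Rbpj, and nearly all of their length lies inside the genes.

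Alternative starts were not all acetylated in these loci. Foxp1 had 3 listed starts, and H3K27ac covered the first and the one at 492.7 kb but 0 bp around the one at 254.5 kb. Both starts of Runx1, 128.7 kb apart, were covered in full, the second by the widest Runx1 peak, of 21.3 kb. All 4 starts of Rara were covered. At Rxra the second start, at 32.1 kb, had 207 bp of H3K27ac, and the starts of Mecom, 496.6 kb apart, had 774 and 1258 bp.

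**Figure D4:**
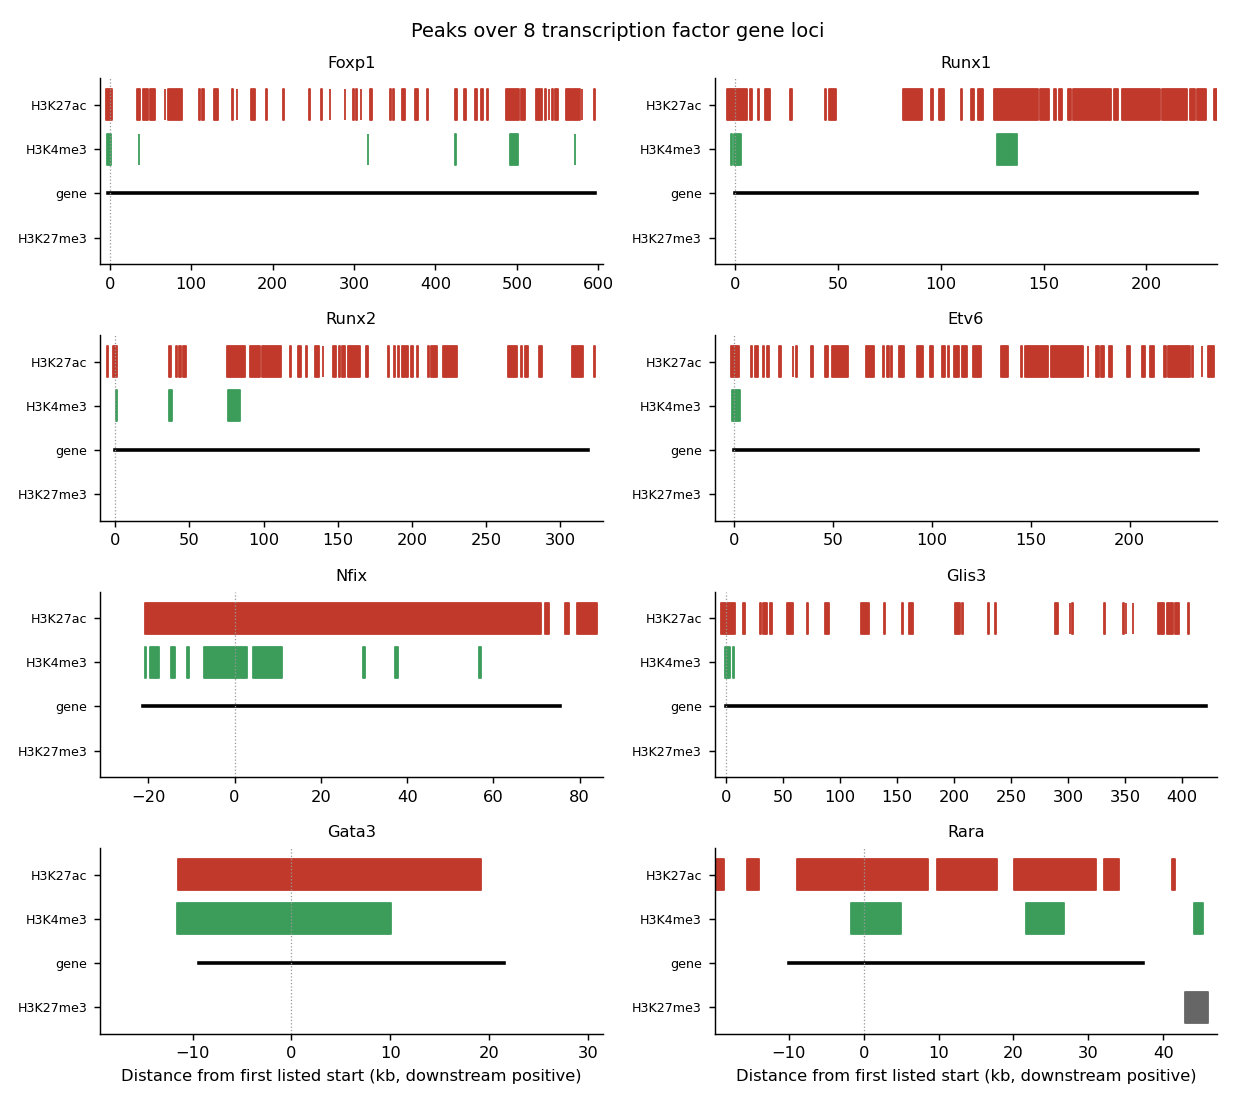
H3K27ac, H3K4me3 and H3K27me3 peaks along 8 transcription factor loci, by distance in kb from the first listed start in the direction of transcription, with the gene drawn as a black line and its first listed start as a dotted line. Foxp1 has 50 separate H3K27ac peaks, whereas a single peak of 91.9 kb spans nearly all of Nfix.

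Sequence acetylated without an acetylated listed start was found at 3 of the 25, Zbtb20, Trp63 and Sox5. At Zbtb20 the listed start lies inside the gene, while an H3K4me3 peak of 2.66 kb with a fold of 15.5 at the outer start side of the gene overlapped H3K27ac over 2.57 kb. A second H3K4me3 peak of 10.5 kb within Zbtb20 (chr16:43501272-43511761) lay wholly under H3K27ac. Trp63 has no listed start and neither end was marked. Its single H3K4me3 peak (chr16:25801954-25805168), 118 kb from the lower end of the gene, lay wholly in an H3K27ac peak of 8.19 kb (chr16:25798697-25806881), and the gene held 17 H3K27ac peaks.

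Sox5 showed another pattern, although its listed start (chr6:143947106, minus strand) also lies inside the gene. The H3K4me3 peak at the upper end of the gene, away from that listed start, had a fold of 21.0. It overlapped 0 kb of H3K27ac, and the 30 H3K27ac peaks lay deeper in the gene. Over all genes, 112 without H3K27ac at the start had 20 kb or more in the locus. Of these, 85 (75.9%) had an H3K27ac peak shared with H3K4me3 inside the gene, and 39 had H3K4me3 at the start. They were long genes, with a median of 219 kb, which leaves much room for such an overlap. No share over other genes as long is given beside it. Besides Zbtb20, Trp63 and Sox5, the 112 genes included Bach2 (35 kb) and Arnt2 (26.5 kb) from the transcription factor list, both named after their values were seen. All 4 H3K4me3 peaks of Bach2 overlapped H3K27ac, and the single one of Arnt2 did not.

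By the fold of the peak at the start the leading transcription factor genes were mostly others. Etv6 had 14.8, the AP-1 gene Junb 12.5, Sp1 11.3, Tgif1 11.2, the circadian repressor gene Nr1d1 11.2 and Tfap2b 11.1. Nr1h2 had 11.0, Atf7 11.0, Sox9 10.8 and Irx1 10.7. By distal peaks, counted at the gene with the nearest start within 100 kb, Nfib led with 43 and Foxp1 had 40. Trps1 had 31, Tead1 26, Trp63 25 and Runx1 24. Nfkb1 and Zbtb7c had 21 each and Tcf4 had 20. For genes with no listed start either end served, which gives them more room for distal peaks.

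By share of the locus the order changed again, and only 2 of the first 25 by kb were among the first 25 by share. Named after their values were seen, the first were Junb (90.1%), Nfix (84.2%), Tgif1 (74.0%), the Id protein gene Id3 (72.4%), Irf1 (72.3%) and Cebpb (71.5%). Most of these are short genes, so the 10 kb flanks make up most of the locus.

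Families of transcription factors differed in how many members were acetylated. All members were acetylated at the start in the TEAD family (4 of 4, median 24.7 kb per locus), the RUNX family (3 of 3, 101.0 kb) and the Id inhibitors (4 of 4, 9.41 kb), against 54.3% of all genes. Within TEAD the range was from Tead1 with 72.9 kb to Tead2 with 1.37 kb, and within RUNX from Runx1 to Runx3 with 16.9 kb. E2F factors of the cell cycle had 9 of 10, NF-kB and NFAT factors 9 of 10 (11.7 kb), SMAD factors 7 of 8 and bZIP factors, AP-1 included, 34 of 40 (10.4 kb). The bZIP family ran from Creb5 (37.1 kb) to Batf2 (0 kb). Nuclear factor I genes had 3 of 4 (67.4 kb), the exception being Nfia with 14.2 kb in the locus, and KLF and SP factors had 19 of 25, from Klf3 (29.1 kb) to Sp8 (0 kb).

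Families known from development of other tissues stood at the other end, mostly with H3K27me3 alone. Over all genes H3K27ac was at 54.3% of starts and H3K27me3 alone at 24.0%, and over the transcription factor list these were 52.4% and 42.7%. PAX genes had H3K27ac at 0 of 9 starts and H3K27me3 at all 9. POU genes had H3K27ac at 1 of 13 and H3K27me3 alone at 10, T-box genes 2 of 15 and 12, and LIM homeobox genes 2 of 12 and 9. GATA genes had H3K27ac at 1 of 5 starts. The exception among GATA genes was Gata3, a luminal mammary regulator, with 30.6 kb, whereas Gata6 had 0 kb. Beside these families, E proteins and their class II partners, counted together, had 10 of 43, with 27 loci at 0 kb and H3K27me3 alone at 29 starts. The most acetylated member was the E protein gene Tcf4, with 40.3 kb, H3K27ac at a gene end and 0 kb of H3K27me3. The 43 genes were not split, so their counts do not describe the E protein genes by themselves.

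Hox and SOX genes were mixed, beside both marks together at 4.44% of all genes and 12.4% of transcription factor genes. Hox genes had H3K27ac at 14 of 39 starts (54.3% of all genes), of which 9 also had H3K27me3, and 25 had H3K27me3 alone. For Hox genes with no listed start either gene end counted. Of the 22 with a listed start only 4 had H3K27ac there (18.2%, against 54.4% of all genes with a listed start). Hox loci ran from Hoxb3 (35.5 kb) to Hoxd9 (0 kb). SOX genes had 8 of 18, of which 5 also had H3K27me3, and forkhead genes 24 of 37, of which 10 did. Grainyhead and OVO genes, regulators of epithelia, had 7 of 9, and 5 of these carried both marks, from Grhl2 (20.6 kb) to Ovol2 (1.24 kb).

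**Figure D5:**
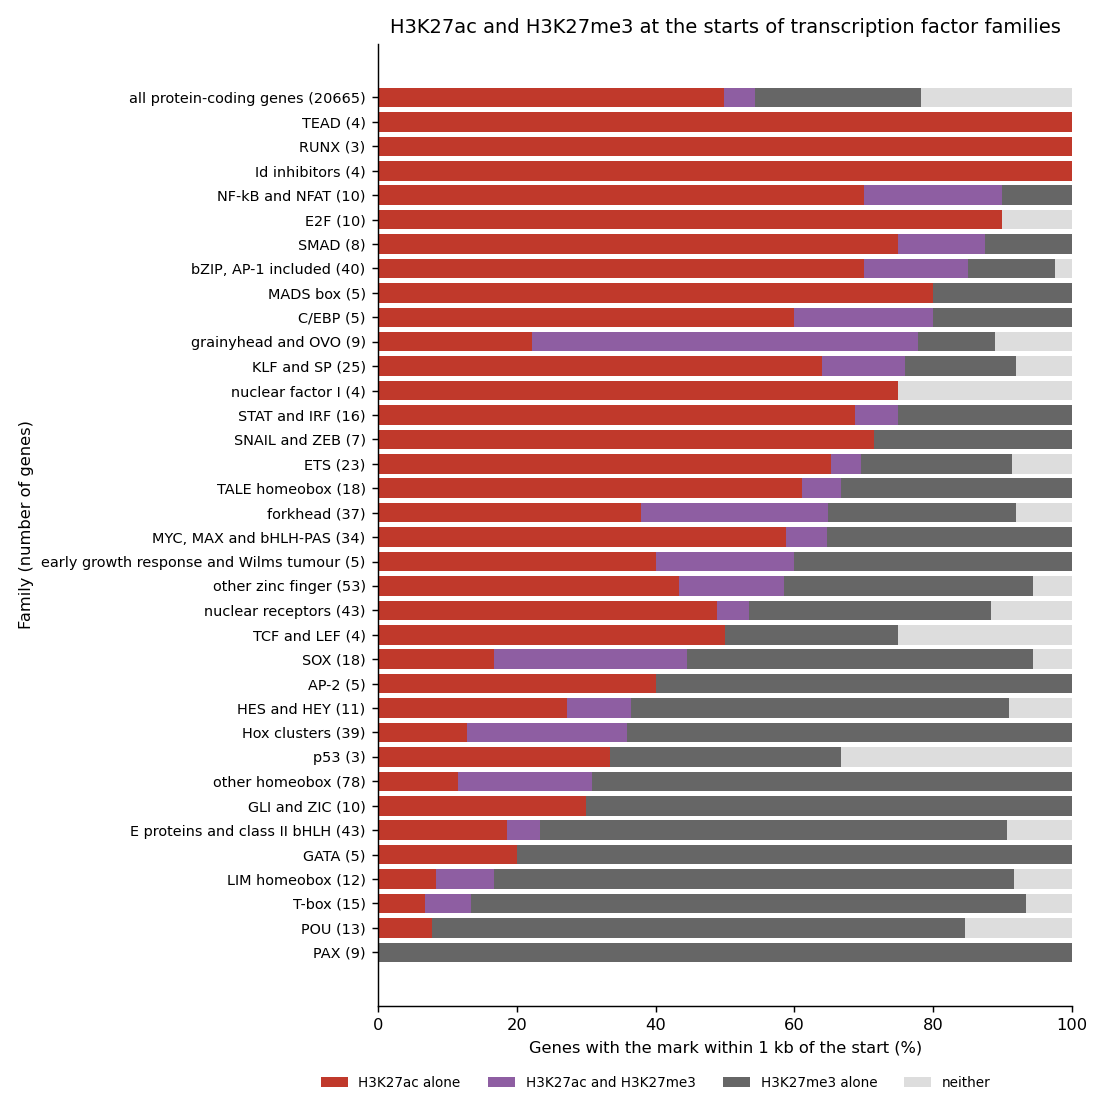
Transcription factor genes by family, as the share of members in percent with H3K27ac alone, H3K27ac with H3K27me3, H3K27me3 alone or neither mark within 1 kb of a start (of either gene end where no start is listed). TEAD, RUNX and Id families are acetylated in every member, and PAX genes in 0 of 9.

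A list of 26 chromatin genes, most of them for proteins that write, remove or read acetylation, had H3K27ac at 24 starts (54.3% of all genes) with a median of 12.3 kb per locus. It also holds the H3K27 demethylase gene Kdm6b and the H3K4 methyltransferase genes Kmt2c and Kmt2d, all acetylated at the start. Hdac4 had 41.4 kb, Hdac7 38.2 kb and Ep300 8.53 kb with a fold of 8.05 at the start, and the start of the bromodomain gene Brd2 had a fold of 14.1. Crebbp and Hdac11 were the exceptions. Polycomb genes had 18 of 19, all but Ezh1, with a median of 7.98 kb.

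Marker genes were read as a check of the cell type. Mammary basal and epithelial markers had H3K27ac at 16 of 17 starts (54.3% of all genes), all but Trp63, with a median of 11.3 kb. Only 9 of the 17 have a listed start, all 9 acetylated there, and for the others either gene end counted. Krt19, with no listed start, had 0 kb of H3K27ac inside the gene. At 6 of the 17 (35.3%, against 4.44% of all genes) H3K27me3 lay at the start as well, namely Krt5, Cdh1, Grhl2, Cldn7, Epcam and Ovol1. The basal keratin genes Krt5 and Krt14 had 15.6 and 11.1 kb, the luminal keratin genes Krt8 and Krt18 had 9.62 and 5.03 kb, and the adherens junction gene Cdh1 had 31.0 kb. H3K27me3 covered 76.5% of the Krt5 locus. Milk and hormone sensing markers had 4 of 8, near the share of all genes, with Csn3, Prlr, Pgr and the estrogen receptor gene Esr1 (21.4 kb) acetylated and Csn2, Wap, Lalba and Foxa1 not. Prlr and Pgr also had H3K27me3 at the start, and it covered 85.4% of the Prlr locus.

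Markers of other cells were acetylated at the start to different extents, beside 54.3% of all genes. Fibroblast markers had 7 of 9, with 33.1 kb at Col1a1, 34.1 kb at Col1a2 and 18.1 kb at Pdgfrb, and with Fap and Lum not acetylated at the start. Immune markers had 2 of 9 (Cd68 and Csf1r), endothelial markers 1 of 7 (Pecam1), skeletal muscle markers 2 of 7 (Tnnt3 and Myh1), and adipocyte and neuronal markers 0 of 6 and 0 of 7. For members with no listed start either gene end counted. With a listed start the counts were fibroblast 3 of 3, immune 1 of 6, endothelial 0 of 4 and skeletal muscle 1 of 5. Whether the fibroblast genes were acetylated in the same cells as the keratin genes was not tested.

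Acetylation was spread unevenly over chromosomes. It covered 2.96% of chromosome 18, 3.20% of 14 and 3.32% of 12, and 7.24% of 15 and 7.89% of 11. Coverage went with gene density across the 19 autosomes (Pearson's r 0.568, Spearman's rho 0.626, given as a description of chromosomes that share all libraries). Chromosome 15 lay off that relation, with 7.69 genes and 35.4 peaks per Mb, or 4.61 peaks per gene, and 62.4% of its genes acetylated at the start. The median fold of its peaks was 2.22, against 2.39 over all autosomes. Chromosome 7 had 14.3 genes per Mb, 1.61 peaks per gene and 42.8% of genes acetylated, and 53.7% without its olfactory and vomeronasal receptor genes.

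In windows of 1 Mb the median acetylated share was 3.29%, 183 of 2470 windows had no peak and 29 had 20% or more. The highest was chr19:5000001-6000000 with 31.2%, which holds Fosl1, Rela, Ovol1 and Npas4 of the transcription factor list. Windows with no gene of that list were also among the highest, such as chr15:77000001-78000000 with 30.5% and chr11:117000001-118000000 with 29.7%. Among windows with such genes, that of Tcf3 and Klf16 on chromosome 10 had 30.3%. The window of Snai1 and Cebpb on chromosome 2 had 27.5% and that of Nfix and Junb on chromosome 8 had 24.9%. The last also had H3K27me3 over 27.7% of its length.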

How the data were processed

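Chromatin immunoprecipitation with sequencing gave a single deposited list of peaks for each antibody. Per the submitters' processing notes the build was mm10 and SAMtools was among the tools. Not given in the sources used here are the aligner, the peak caller, how the 4 replicates were combined and which input was the control. The authors' broad peak lists give per peak a score (not used), a fold ratio of ChIP over control, −log10 p (not used) and −log10 q. The deposited HEB list gives positions only.

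Gene positions and 250 bases of promoter came from NCBI RefSeq tables of GRCm38.p6, which has the coordinates of mm10, with a start for 16457 of 20665 autosomal protein-coding genes and none on chromosome 18. Where a gene has no listed start, both its ends were used. Overlap meant 1 bp or more. Counting used Python 3.11.15, pandas 2.3.3 and NumPy 2.4.6, and interval code was tested on simulated data. Members and lists were chosen with earlier results of these data known.

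Genes were named by rule: the 25 transcription factor genes and 10 genes with most acetylated kb, the 10 with the largest acetylated share of a gene of 20 kb or more, 10 by start fold, 10 by distal peaks, family extremes, marker lists and genes at the 10 strongest and 10 widest peaks. Alternatives changed the peak threshold, promoter window, flank, overlap, gene ends and joining of peaks. A few genes that this rule names are not reported here.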

Additional observations from a re-analysis of the deposited data

How the results depend on the processing

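No paired analysis was possible because the peak lists carry no column per replicate, and for the same reason no replicate could be left out. Peaks with −log10 q of 5 or more shifted the picture towards promoters: 33.1% of peaks lay there (17.7% with all peaks), median folds were 4.49 at promoters and 3.40 in distal peaks, H3K4me3 touched 95.0% and 16.1%, 36.3% of midpoints lay within 5 kb of a start (23.8% with all peaks), 47.3% of transcription factor genes were acetylated at the start, the median locus held 1.91 kb, and the correlation of coverage with gene density was 0.737. Peaks above the median fold gave 30.9%, a distal median fold of 3.21, H3K4me3 at 94.5% and 14.6%, 34.4% of midpoints, 2.02 kb and 0.744. A promoter window of 500 bp gave 17.0% of peaks at promoters, with H3K4me3 at 91.5% of these and 7.58% of distal peaks, and one of 2500 bp gave 20.2%, 80.3% and 7.02%. Taking both ends of every gene put 19.1% of peaks at promoters, and an overlap of 200 bp gave H3K4me3 at 89.9% of promoter peaks. The median locus held 1.01 kb without flanks, 8.53 kb with 50 kb on each side and 5.60% as a share. By that share 2 of the 25 leading transcription factor genes were kept, against 18 to 23 under the other 5 alternatives for this ranking. Genes acetylated at the start numbered 9937 to 11826 under the other peak, window, overlap and gene end choices and 8946 of 16457 with listed starts only, an alternative added after seeing the data. Promoter peaks kept the higher median fold and the higher H3K4me3 share than distal peaks in each of these settings that was run for them. Unknown depth limits what a missing peak can say.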

Other observations

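Groups of genes sharing a symbol root, chosen after their values were seen, differed in how often they were acetylated at the start. Olfactory receptor genes (Olfr) had H3K27ac at 11 of 1104 starts (0.996%), and 92.9% of their loci had none. Vomeronasal receptor genes (Vmn) had 3 of 354 and keratin associated protein genes (Krtap) 2 of 56. Without the olfactory and vomeronasal receptor genes, 58.3% of the remaining genes were acetylated at the start, against 54.3% of all.

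Genes of the protein making and degrading machinery stood at the other end. Mitochondrial ribosomal protein genes (Mrpl and Mrps) had 77 of 78, proteasome genes (Psm) 37 of 39 and cytosolic ribosomal protein genes (Rpl and Rps) 84 of 94, the last with a median of 6.48 kb per locus. Zinc finger genes (Zfp) had 292 of 388 (75.3%) but a median of only 1.94 kb, below the 2.82 kb of all genes. Collagen genes (Col) were split, with 18 of 42 acetylated at the start (42.9%, against 54.3% of all genes). H3K27me3 stood alone in 19 (45.2% against 24.0%). The locus held 20 kb or more of H3K27ac in 9 (21.4% against 5.05%). Collagen genes are long, with a median of 110 kb, and 19.7% of all genes of 100 to 200 kb held as much, so this share was near that of genes of like length.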
